A study of Saccharomyces cerevisiae with 7 samples.

Results

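Between 3 h and 4 h of a meiotic time course of budding yeast (Saccharomyces cerevisiae), 120 of 5666 measured genes differed by at least 2-fold in messenger RNA. They were chosen by subtracting the 3 h value from the 4 h value of each gene and keeping log2 differences of 1 or more in either direction. Of the 120 genes, 110 were higher at 4 h (1.94% of all genes) and 10 were lower (0.176%). With each column scaled to one SD over genes, the split was 96 higher and 24 lower. The same difference chose the genes and is reported for them, so it is a description and not a test.

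The samples compared were messenger RNA of cultures at 4 h and at 3 h of the time course, with 1, 2, 5, 6 and 8 h as further time points. Per the labels, each sample carried the red dye (Cy5), and a pool of RNA of the meiotic time points carried the green dye (Cy3) on the same array; the deposited value is the log2 of that ratio after division by the ratio at 0 h. The division by 0 h cancels in the difference between 4 h and 3 h. The design text names 3 independent cultures, but the table has 1 column per time point, which leaves the values without replicate error, and no difference between hours was tested. The sources used here do not name the strain or the medium. Because the arrays measured whole cultures, more RNA per cell and more cells that had reached a stage cannot be told apart.

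The middle genes of yeast meiosis are switched on as cells leave prophase of the first division. Their activator is the transcription factor Ndt80, which also acts on its own gene, and the repressor Sum1 holds many of them off before that. Their products drive the meiotic divisions, build the prospore membrane that grows out from the spindle pole bodies around each haploid nucleus, and lay down the spore wall, with inner layers of mannan and glucan and outer layers of chitosan and dityrosine. Higher and lower below describe the ratio at 4 h set against the ratio at 3 h.

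Among the genes higher at 4 h the difference had a median of 1.82 and reached 4.88, or 29.4-fold, in the spore wall gene SPS2. In 50 of them it was 2 or more and in 19 it was 3 or more. The 10 lower genes lay between -1.35 and -1.02. Over all 5666 genes the median difference was 0.01 and the SD over genes 0.41. For comparison, that SD was 0.49 for 2 h over 1 h and 0.32 for 3 h over 2 h. It was 0.79 for 5 h over 4 h, 0.20 for 6 h over 5 h and 0.37 for 8 h over 6 h. These SDs hold real change as well as error.

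**Figure D1:**
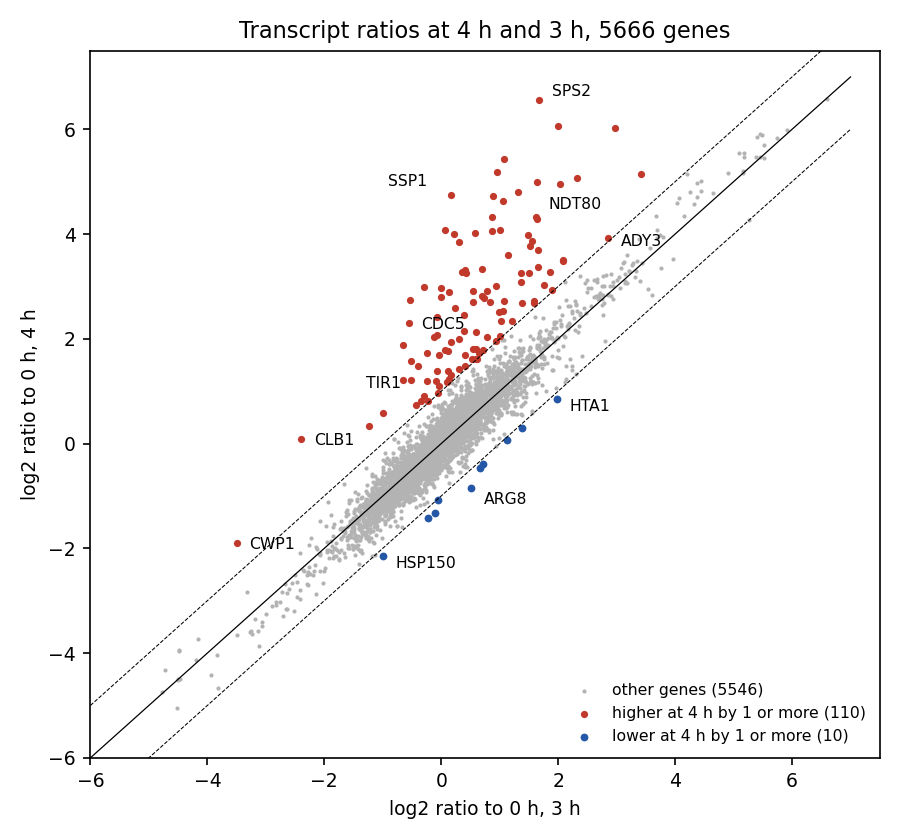
Log2 ratio to 0 h at 4 h (vertical axis) against 3 h (horizontal axis) for 5666 genes, with the 110 higher genes in red, the 10 lower genes in blue and the remaining 5546 in grey. The solid line marks equal ratios and the dashed lines a difference of 1; the red points reach up to 6.56 at 4 h, while the blue points lie close to the dashed line.

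NDT80 itself was among the higher genes. Its log2 ratios were -0.24, -0.10, 1.62, 4.32, 6.90, 7.10 and 6.98 over the 7 hours, here and below in the order 1, 2, 3, 4, 5, 6 and 8 h. The value at 4 h was therefore 6.50-fold above that at 3 h, and 3 h was already above both earlier hours. SUM1, the gene of the repressor, stood at -0.05 at 4 h, against -0.15 at 3 h. The upstream regulators differed by less than the cut. IME1, the activator of entry into meiosis, was at 2.69 at 4 h, against 2.78 at 3 h, and the meiotic kinase gene IME2 at 5.91, against 5.46. NDT80 was the single member past 1 among the 14 measured genes of the Ndt80 and Sum1 circuit. The next largest differences there were 0.50 in the kinase gene RIM15 and 0.46 in IDS2.

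The genes of the spore wall held the largest group, with 20 of 33 measured members higher, 0 lower and 13 past neither side. For this and the lists below, the shares over all genes were 1.94% higher and 0.176% lower. All lists were chosen with earlier results of these data known. The spore wall list median was 1.72, against 0.01 over all genes. SPS2, which encodes a cell surface protein of the spore wall, had ratios of -0.16, 0.08, 1.68, 6.56, 10.92, 11.33 and 11.70 over the 7 hours. Its relative SPS22 had -0.12, -0.45, -0.01, 2.97, 7.25, 7.37 and 8.11. Both were near the 0 h level up to 2 h, but only SPS2 was above it by more than 1 at 3 h. SPS4, a sporulation-specific gene, stood at 0.70, -0.90, 1.07, 5.44, 10.29, 10.85 and 11.75. LDS1 and LDS2, whose products associate with lipid droplets and the outer spore wall, were at 5.18 and 6.06 at 4 h, against 0.95 and 2.00 at 3 h, while the third gene of that family, RRT8, was at 0.77, against 0.47. SPR2 was at 4.07 at 4 h, against 0.07 at 3 h, and IRC18 (also known as OSW6) at 4.72, against 0.89.

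Enzymes of the glucan, chitosan and dityrosine layers were represented in the same list. For the glucan layer these were the glucan elongase genes GAS4 (3.98 at 4 h, against 1.48 at 3 h) and GAS2 (2.77, against 0.74) and the glucanase gene SPR1 (3.69, against 1.65). CRR1, a glycosidase family gene of the wall, was at 2.69 at 4 h, against 1.38 at 3 h. For the chitosan layer, the chitin deacetylase gene CDA1 had ratios of -0.15, 0.35, 1.63, 4.99, 8.66, 8.89 and 8.90 over the 7 hours. CDA2, its close relative, had -0.08, -0.24, -0.25, 1.72, 4.64, 4.68 and 4.57. The difference between 4 h and 3 h was thus larger in CDA1 (3.36) than in CDA2 (1.97), although probes for related genes can share signal. CHS3, the chitin synthase gene that makes the precursor, was at 0.64 at 4 h, against 0.82 at 3 h.

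The dityrosine genes differed from each other in this hour. DIT2, a cytochrome P450 that joins the tyrosines, had ratios of -0.17, -0.17, 0.06, 1.78, 4.40, 5.40 and 6.89 over the 7 hours. DIT1, the enzyme of the preceding step, had 0.05, 0.58, 0.47, 0.88, 1.27, 4.09 and 7.73. The transporter gene DTR1 had -1.08, -0.68, 0.00, 2.80, 6.40, 6.64 and 6.71. DTR1 and DIT2 were past the cut at 4 h, whereas the DIT1 difference was 0.41. The remaining higher members of the wall list were LOH1 (2.26), OSW2 (2.12), SSP2 (1.77), SPR6 (1.44) and SMK1 (1.22), given as the log2 difference of 4 h over 3 h. SMK1 encodes a mitogen-activated protein kinase of wall assembly and SSP2 its activator. The late gene SPS100 was at 1.01 at 4 h, against 1.13 at 3 h, and MUM3, at 1.98, against 1.08, came near the cut.

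Prospore membrane genes were the second large group, with 14 of 23 measured members higher, 0 lower and 9 past neither side, and a list median of 1.13. That median was 0.883 with each column scaled to one SD and 1.385 against the mean of 2 h and 3 h. SSP1, of the coat at the leading edge of the growing membrane, had ratios of -0.81, -0.80, 0.16, 4.75, 8.14, 8.26 and 7.96 over the 7 hours. Its difference of 4.59 was 24.1-fold and the second largest of all genes. The other leading edge genes were higher by less and started from other levels. ADY3 was at 3.93 at 4 h, against 2.86 at 3 h, DON1 at 3.51, against 2.09, and IRC10 at 2.34, against 1.21. ADY3 was above the 0 h level by more than 1 from the first hour on (1.35 at 1 h).

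Kinases, fusion proteins and septins of the prospore membrane followed. SPS1, a kinase that controls closure of the membrane, had ratios of -0.34, -0.64, 0.31, 3.84, 8.75, 9.33 and 10.23 over the 7 hours. SPO77, which acts in the same pathway, was at 3.27 at 4 h, against 0.35 at 3 h, and SPO75 missed the cut by 0.02, at 1.16, against 0.18. SPO20, the sporulation-specific SNARE that fuses vesicles into the membrane, was at 3.25 at 4 h, against 1.50 at 3 h. Other SNARE genes had smaller or opposite differences: SSO1 was at 0.45, against 0.39, SEC9 at -1.09, against -0.93, and SSO2 at -2.02, against -1.42. GIP1, the subunit that directs the phosphatase Glc7 to the membrane, was at 0.58 at 4 h, against -0.99 at 3 h, and GLC7 at 0.03, against 0.04. SMA2 (1.71), SPO19 (2.37), YSW1 (1.29) and SMA1 (1.07) were also past the cut, given as log2 differences, as were the septin genes SPR3 (3.58) and SPR28 (2.93), which belong to both lists.

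Septins form filaments along the prospore membrane, and 3 of 7 measured septin genes were higher. SPR3, a sporulation-specific septin, had ratios of -0.65, -0.24, 1.05, 4.63, 8.69, 9.05 and 9.25 over the 7 hours. SPR28, the other sporulation-specific septin, had -0.26, 0.49, 2.03, 4.96, 8.35, 8.60 and 8.50. Of the mitotic septins, CDC10 was at 1.49 at 4 h, against 0.41 at 3 h, and CDC3 at 1.61, against 0.91. CDC11, CDC12 and SHS1 differed by 0.06, 0.03 and -0.03, so the mitotic septin genes split into a pair at 0.70 or more and the other three near 0.

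At the spindle pole body, 4 of 18 measured genes were higher, and 3 of these belong to the meiotic outer plaque from which the prospore membrane starts. SPO74 had ratios of -0.99, 0.17, 1.31, 4.81, 8.55, 8.63 and 8.70 over the 7 hours. SPO21 (also known as MPC70) was at 3.00 at 4 h, against 0.93 at 3 h, and ADY4 at 1.38, against 0.12. The remaining plaque gene, MPC54, was at 3.99 at 4 h, against 3.75 at 3 h, and so was high at both hours. The core component gene SPC42 was at 1.81 at 4 h, against 0.55 at 3 h, and CNM67, the anchor of the outer plaque, at 1.85, against 1.09. The list median was 0.20.

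The cell cycle genes past the cut were CDC5 and 3 of the B-type cyclin genes. CDC5, the polo kinase needed to leave prophase, had ratios of -0.16, -0.29, -0.55, 2.31, 4.80, 4.79 and 4.32 over the 7 hours, a 7.26-fold difference between 4 h and 3 h. CLB1 had -0.17, -1.01, -2.39, 0.09, 4.19, 4.16 and 4.11. The ratio of CLB1 at 4 h was thus close to the 0 h level, and its difference of 2.48 was taken from a low value at 3 h. CLB4 was at 2.04 at 4 h, against 0.79 at 3 h, and the S-phase cyclin gene CLB6 at 2.68, against 1.58. CLB3, the cyclin of the second division, was at 1.06 at 4 h, against 0.62 at 3 h, and CLB5 at 2.66, against 2.30. The mitotic cyclin gene CLB2 was at -0.37, against -0.86. Thus 4 of 18 measured genes of the cyclin and kinase list were past the cut.

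Genes of chromosome segregation showed 1 member past the cut in each of 2 lists. MAM1, of the monopolin complex that makes sister kinetochores face the same pole, had ratios of -0.42, 0.62, 2.33, 5.07, 6.80, 6.75 and 6.58 over the 7 hours. In the same list of 7 measured genes SPO12 differed by 0.94 and SPO13 by 0.45. Of 18 measured genes of the anaphase-promoting complex with securin and separase, APC11, the RING subunit, was at 1.30 at 4 h, against 0.16 at 3 h. The next were CDC26 at 1.02, against 0.12, and the activator gene CDH1 at 0.09, against -0.80. CDC20 was at 0.33, against -0.38, and the meiotic activator gene AMA1 at 4.68, against 4.06. Although 1 member passed, 16 of the 18 had differences above 0 (50.5% of all genes did). The list median was 0.605, or 0.304 with each column centred and scaled to one SD. Of 39 measured kinetochore, checkpoint and spindle motor genes, 0 were past the cut, with the largest differences in NSL1 (-0.84) and MPS1 (0.76).

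The list of other middle genes held 6 higher members among 17 measured. PES4 and MIP6 encode related RNA-binding proteins and stood at 4.32 and 4.06 at 4 h, against 0.86 and 0.87 at 3 h. PFS1, a sporulation gene, was at 2.99 at 4 h, against -0.30 at 3 h, and the hexose transporter family member HXT14 at 4.08, against 1.00. SPS18 was at 2.03, against -0.12. EMI2, related to the hexokinases, had ratios of -0.22, -1.33, -1.24, 0.34, 3.51, 4.30 and 5.72 over the 7 hours. EMI2 was below the 0 h level at 3 h and its value at 4 h was close to it.

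**Figure D2:**
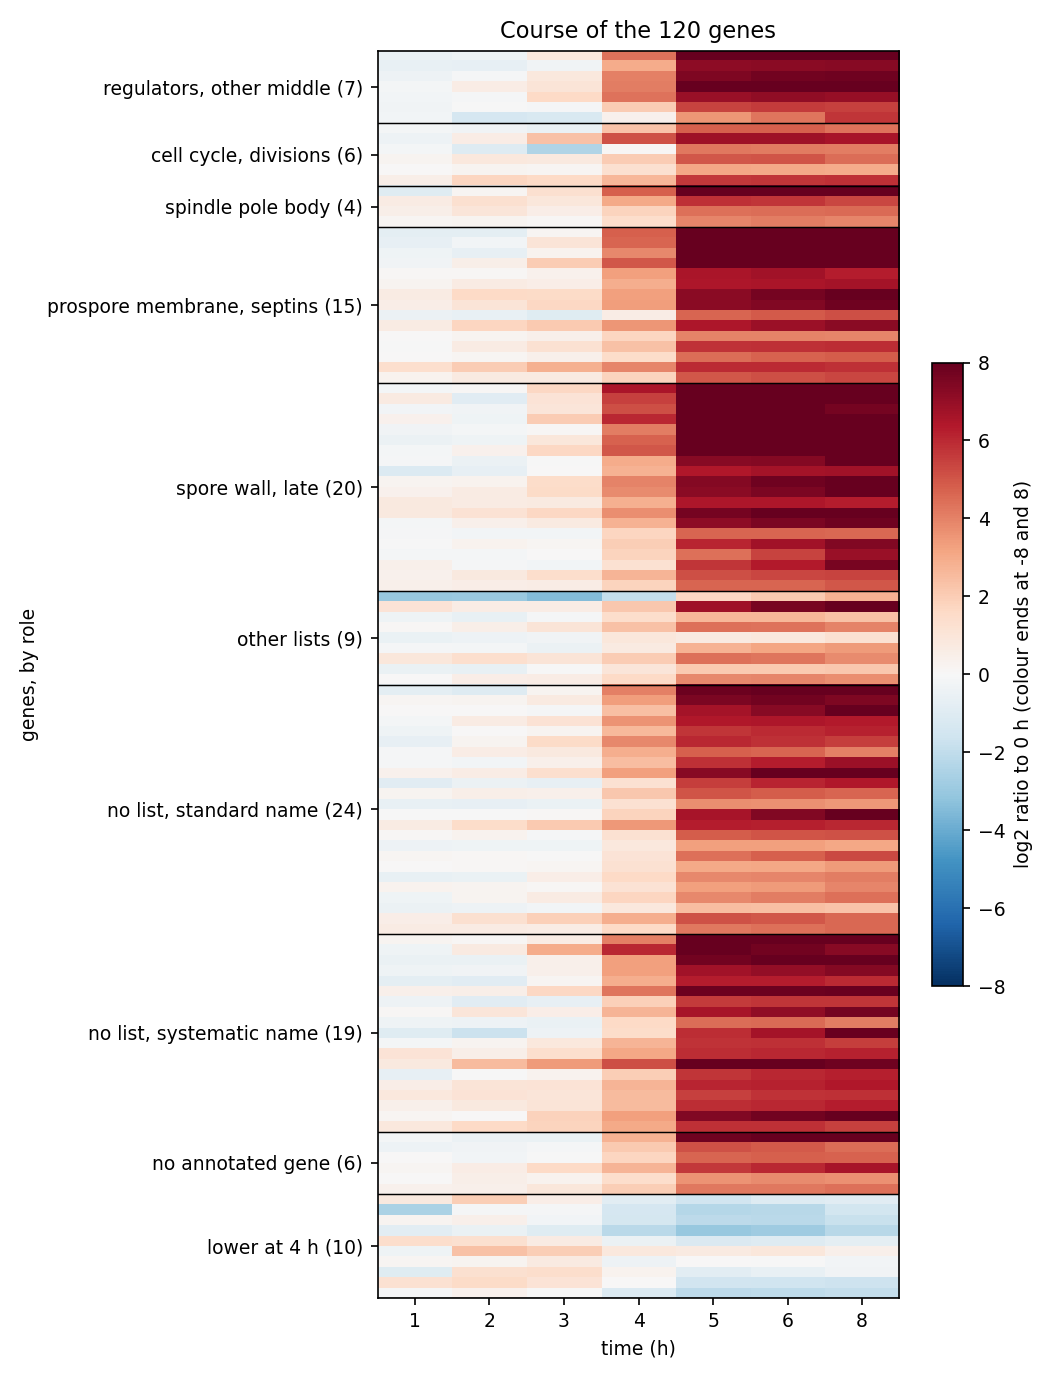
Log2 ratio to 0 h (colour) of the 120 genes at the 7 time points (columns), grouped by role with the number of genes in brackets; within a role, genes run from the largest to the smallest difference between 4 h and 3 h. At 4 h, 101 of the 110 higher genes stand at 1 or more, against 36 at 3 h; CWP1, at the top of the other lists, is blue up to 4 h, and the bottom block holds the 10 lower genes.

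Of the 110 higher genes, 61 were in a list (55.5%, against 15.9% of all genes) and 43 were annotated genes in none. The other 6 rows matched no annotated gene (5.45%, against 7.55% of all genes). The lists were chosen with earlier results of these data known. The higher genes in lists outside sporulation were few. SGA1, the glucoamylase of sporulating cells, was at 2.13 at 4 h, against 0.60 at 3 h. The chaperone genes SSA3 and SSA4, a related pair of the heat shock family, were at 1.38 and 0.97, against -0.08 and -0.05. EXO1, an exonuclease of recombination and repair, was at 2.06, against 1.00. The mating genes FUS2, PRM2 and STE4 had differences of 1.31, 1.17 and 1.01.

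A pair of cell wall mannoprotein genes of growing cells was also higher. CWP1 had ratios of -3.01, -2.97, -3.50, -1.90, 1.63, 2.12 and 2.78 over the 7 hours. TIR1 had -0.52, -0.42, -0.29, 0.91, 0.71, 0.83 and 1.22. CWP1 was the one higher gene whose ratio at 4 h was below the 0 h level, and TIR1 the one whose ratio at 5 h was lower than at 4 h. In the same list of 27 measured genes HSP150 was lower, and 18 of the 27 differences were below 0 (47.9% of all genes were). The list median was -0.34, or -0.072 with each column scaled to one SD.

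Annotated genes in none of the lists comprised 24 with a standard name and 19 with a systematic name only. Protein-coding genes with a systematic name only made up 17.3% of the higher genes and 8.05% of all genes. The genes named here were picked after their values were seen, apart from RRT5, one of the 15 largest named differences. RRT5 was at 4.00 at 4 h, against 0.22 at 3 h. STO1, the large subunit of the nuclear cap-binding complex, was at 2.92, against 0.79. Enzyme genes were also among them, with GAL7 of galactose use at 2.45, against 0.39, and the chitinase family gene CTS2 at 1.76, against 0.12. SUT1, a transcription factor of sterol uptake, was at 1.21, against -0.52. Among the genes with a systematic name only, differences ran from 1.27 to 3.45, the highest in YPR078C.

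Of the 6 unannotated rows, 5 carried the systematic number next to that of a higher annotated gene. How often other unannotated rows do so was not counted. YPR077C (3.29) lay beside YPR078C (3.45), YDL187C (2.15) beside YDL186W (2.76) and YNL205C (1.74) beside SPS18 (2.15). YNL319W (1.14) lay beside HXT14 (3.08) and YOR364W (1.02) beside YOR365C (1.73). The array platform is not stated, and whether such a row and its neighbour read the same transcript was not tested.

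Some neighbouring annotated genes were higher together. Of 4590 adjacent pairs of measured protein-coding genes in the RefSeq R64 annotation, 4 had both members higher: SPS2 with SPS1, SSP1 with PFS1, LOH1 with IRC18, and CLB1 with CLB6. They held 8 of the 104 annotated protein-coding higher genes, and whether this differs from the share by chance was not tested. The pairs were of each orientation, with 1 tandem, 2 convergent and 1 divergent. In a further divergent pair the members went opposite ways, with PIR5 at 2.41 at 4 h, against -0.07 at 3 h, and HSP150, also of the PIR family, at -2.14, against -0.99. The 174 measured neighbours of higher genes that were not themselves past the cut had a median difference of 0.075, against 0.01 over all genes, and 6.32% of them were at 0.5 or more, against 5.19% of all genes. The annotated length of the 104 protein-coding higher genes had a median of 1207.5 bases, against 1215 over 5223 measured protein-coding genes.

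Before 3 h the higher genes were mostly near their 0 h level. Over the 7 hours their median ratios were -0.04, 0.185, 0.58, 2.70, 5.88, 6.03 and 6.24. A ratio of 1 or more was reached by 3 of the 110 at 1 h (7.11% of all genes were there) and by 14 at 2 h (9.42% of all genes). The step from 1 h to 2 h, which shares no column with the choice of genes, was 1 or more in 6 of the 110 (4.77% of all genes). Those 6 were YPR027C, CLB6, SPO74, DON1, MAM1 and YGL138C, named because the count was small, and SPS4 and EMI2 were lower by more than 1 in that step (1.15% of all genes). From 2 h to 3 h the step was 1 or more in 21 of the 110 (19.1%, against 0.6% of all genes). The choice of genes used the 3 h column of that step.

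At 3 h the higher genes spread between -3.50 in CWP1 and 3.41 in YPR027C. A ratio of 1 or more was reached by 36 of them at that hour (9.81% of all genes), while 27 were below the 0 h level (24.5%, against 50.5% of all genes). At 4 h the range was -1.90 to 6.56, and 101 had a ratio of 1 or more (12.1% of all genes), a count that the choice of genes bears on. The distance covered by 4 h differed between genes, although it is built from the difference that chose them, which favours high values. Of the log2 distance between 8 h and 3 h, the step to 4 h made up 18.4% in SPR6, 36.4% at the median and 79.5% in TIR1. The median was 13.7% over the 1247 genes whose values at 8 h and 3 h differed by 1 or more. LDS2, at 67.4%, and the uncharacterised gene YGL138C, at 70.9%, were the next highest.

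After 4 h the higher genes stood well above the 0 h level. At 5 h, 109 of the 110 had a ratio of 1 or more (17.6% of all genes), with TIR1 the exception, and at 8 h 110 of 110 did (17.6% of all genes). A ratio of 4 or more at 8 h was found in 93 of the 110 and in 154 genes overall (2.72%). For the same genes the difference of 5 h over 4 h had a median of 3.21 and ran from -0.20 in TIR1 to 5.62 in YPR078C. The difference of 4 h over 3 h had a median of 1.82. Both differences use the 4 h column, so an error in that column enters them with opposite sign.

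**Figure D3:**
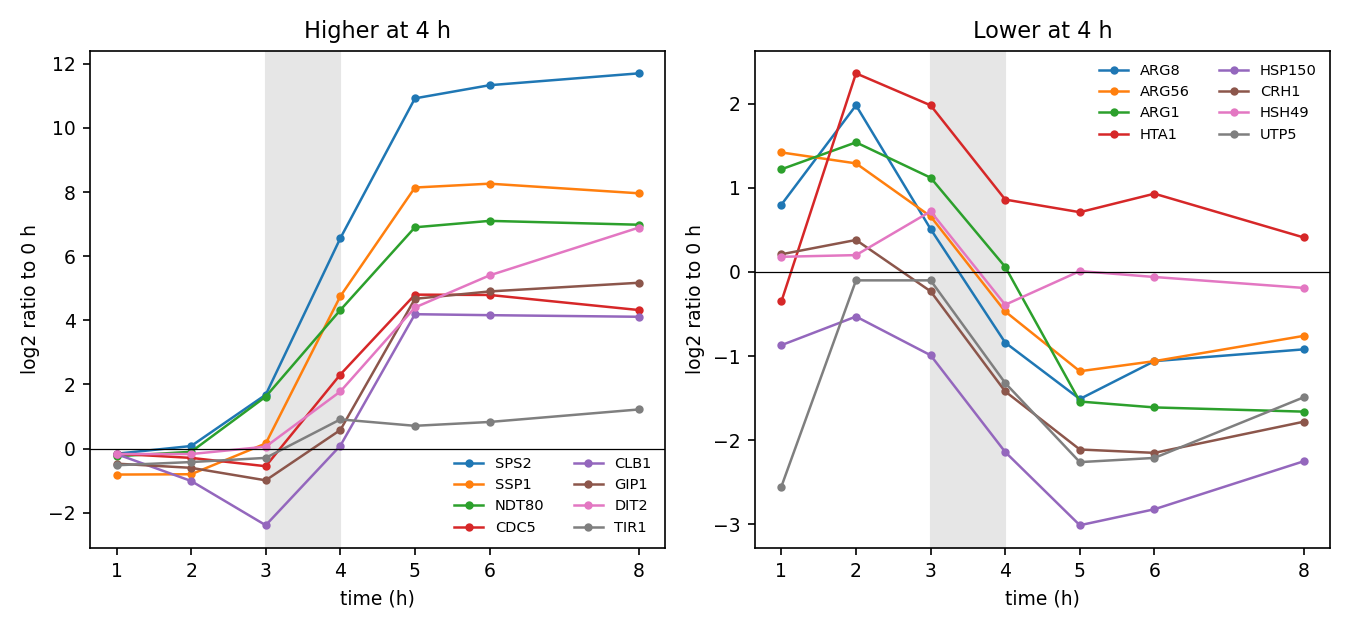
Log2 ratio to 0 h (vertical axis) against time in h for 8 genes higher at 4 h (left) and 8 genes lower at 4 h (right), 1 point per deposited column and no replicate error; the grey band is the interval from 3 h to 4 h. SPS2 and SSP1 have the steepest lines across the band, CLB1 stands at -2.39 at 3 h, TIR1 stays near 1 after 4 h, and HSH49 is back at 0.01 at 5 h. The vertical axes differ between the panels.

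After 5 h the median differences of the higher genes between neighbouring time points were smaller than those of 4 h over 3 h and 5 h over 4 h. The difference of 6 h over 5 h had a median of 0.155 in the 110 genes, and 1 of them, DIT2, reached 1 (0.159% of all genes). It was above 0 in 86 of the 110 (78.2%, against 50.3% of all genes). For 8 h over 6 h the median was 0.09, and 7 of the 110 were higher by 1 or more (1.66% of all genes). They were DIT2 (1.49), EMI2 (1.42), SPR6 (1.27), SGA1 (1.24), YGL230C (1.24), ECM23 (1.04) and CTS2 (1.04). In this interval 67 of the 110 (60.9%) were above 0, against 47.7% of all genes. The cell cycle and division genes had a median of -0.12, and 5 of 6 were below 0 (51.1% of all genes were), among them CLB4 (-0.53) and CDC5 (-0.47). The spore wall genes had a median of 0.27, and 16 of 20 were above 0. The prospore membrane and septin genes had a median of 0.13, with 10 of 15 above 0, a share near that of the 110. Of the regulators and other middle genes 4 of 7 were above 0, and of the spindle pole body genes 2 of 4. STO1 (-0.64) and EXO1 (-0.54) were the lowest of the 110. Neither the 6 h nor the 8 h column entered the choice of genes, and the differences between roles were not tested.

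**Figure D4:**
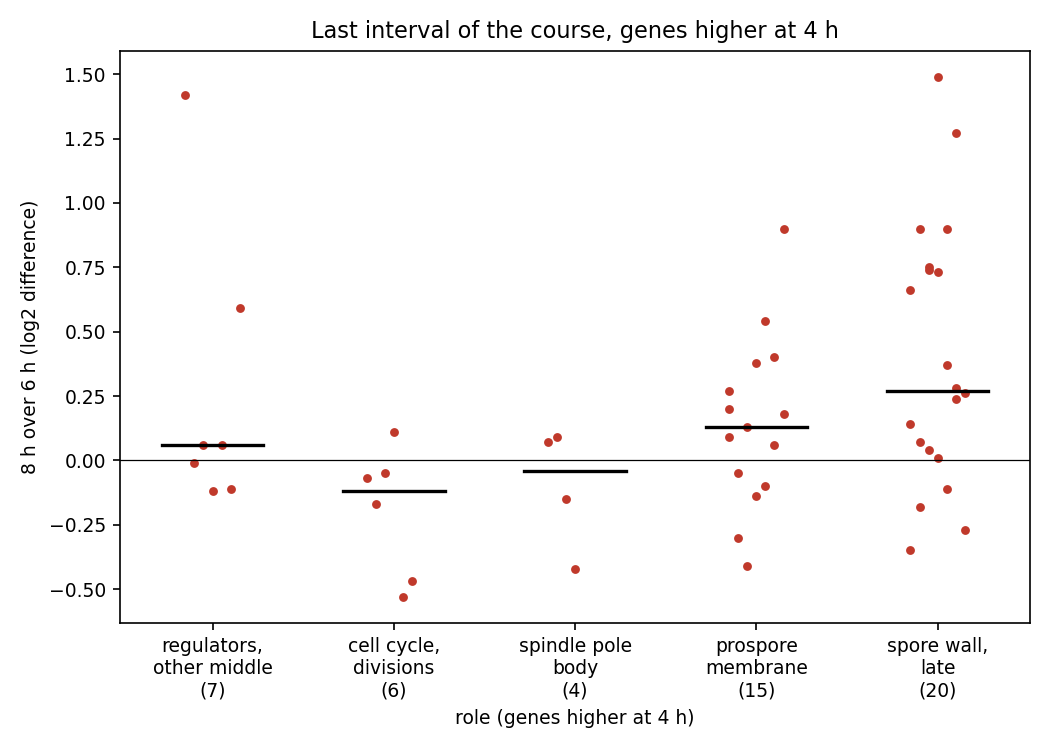
Log2 difference of 8 h over 6 h (vertical axis) for genes higher at 4 h, by role (horizontal axis, number of genes in brackets); each point is 1 gene and the bar is the median. Spore wall genes spread from -0.35 up to 1.49 with a median of 0.27, while 5 of the 6 cell cycle and division genes lie below 0.

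The 10 lower genes had median ratios of 0.035, 0.825, 0.585, -0.655, -1.53, -1.34 and -1.21 over the 7 hours. These medians were above the 0 h level up to 3 h and below it from 4 h on. The choice of genes favours such a fall between 3 h and 4 h. The lower genes included 3 of arginine synthesis. ARG8, which encodes acetylornithine aminotransferase, had ratios of 0.80, 1.98, 0.51, -0.84, -1.51, -1.06 and -0.92 over the 7 hours. ARG56, the gene of the enzymes of the steps before it, had 1.42, 1.29, 0.66, -0.47, -1.18, -1.06 and -0.76. ARG1, argininosuccinate synthetase, had 1.22, 1.54, 1.12, 0.06, -1.54, -1.61 and -1.66. All 3 were above the 0 h level up to 3 h and below it from 5 h on. Other arginine genes in the list of amino acid synthesis were lower by less: CPA1 was at 0.18 at 4 h, against 1.08 at 3 h, ARG4 at 1.12, against 1.73, and ARG3 at 0.66, against 0.79. Over the 42 measured amino acid synthesis genes the median was -0.26, with 37 differences below 0 (47.9% of all genes were below 0).

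A histone gene and 3 cell wall genes were also among the lower ones. HTA1, of histone H2A, had ratios of -0.35, 2.36, 1.98, 0.86, 0.71, 0.93 and 0.41 over the 7 hours. Its near-identical copy HTA2 was at 1.33 at 4 h, against 2.30 at 3 h, so the separate values are uncertain. Of the 10 histone genes 10 had differences below 0 (47.9% of all genes were), with a median of -0.83, and HTA1 was the one past the cut. With each column scaled to one SD the histone median was -1.059, so which histone genes pass the cut depends on the scale. Closest to 0 were HHO1 (-0.03), of the linker histone, and HTZ1 (-0.15), of the H2A variant. HSP150, a cell wall glycoprotein, had -0.87, -0.53, -0.99, -2.14, -3.01, -2.82 and -2.25. CRH1 and UTR2 encode related enzymes that join chitin to glucan in the wall of growing cells. CRH1 was at -1.42 at 4 h, against -0.23 at 3 h, and UTR2 at -1.08, against -0.06.

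The remaining lower genes were of separate functions. HXT2, a high-affinity glucose transporter gene, was at 0.30 at 4 h, against 1.38 at 3 h. UTP5, of the processome that makes the small ribosomal subunit, was at -1.32, against -0.10. HSH49, a splicing factor gene of the U2 particle, had ratios of 0.18, 0.20, 0.72, -0.39, 0.01, -0.06 and -0.19 over the 7 hours. At 5 h it was again near its 0 h level, and against the mean of 2 h and 3 h its difference at 4 h was -0.85.

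Just inside the cut on the higher side were YOR364W (1.02), STE4 (1.01) and MPH2 (1.00), and just outside it SPO75 (0.98), STE3 (0.98) and ECM8 (0.97). On the lower side HXT2 (-1.08), ARG1 (-1.06) and UTR2 (-1.02) were inside, and CHS1, MEP2 and ERG3, each at -0.99, outside.

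Of 38 gene lists, 21 held no gene past the cut, and their medians lay between -0.35 and 0.40. The proteasome list had the highest of these medians. Its 35 measured genes had differences from 0.08 to 0.71, 35 of them above 0 (2863 of the 5666 genes were above 0). RPN2 was at 1.33 at 4 h, against 0.62 at 3 h, and RPN3 at 1.21, against 0.58. The median was 0.281 after each column was scaled to one SD. The heat shock chaperones had a median of 0.37 with 22 of 23 differences above 0, or medians of 0.354 after scaling and 0.615 against the mean of 2 h and 3 h. The early meiotic lists, already high at 3 h, had small medians whose sign depended on the scale. Break formation was at 0.345 (SPO11 at 4.98 at 4 h, against 4.37 at 3 h) and at -0.055 after scaling. Chromosome axis and synapsis was at 0.21 (ECM11 at 4.35, against 3.67) and at -0.334 after scaling.

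**Figure D5:**
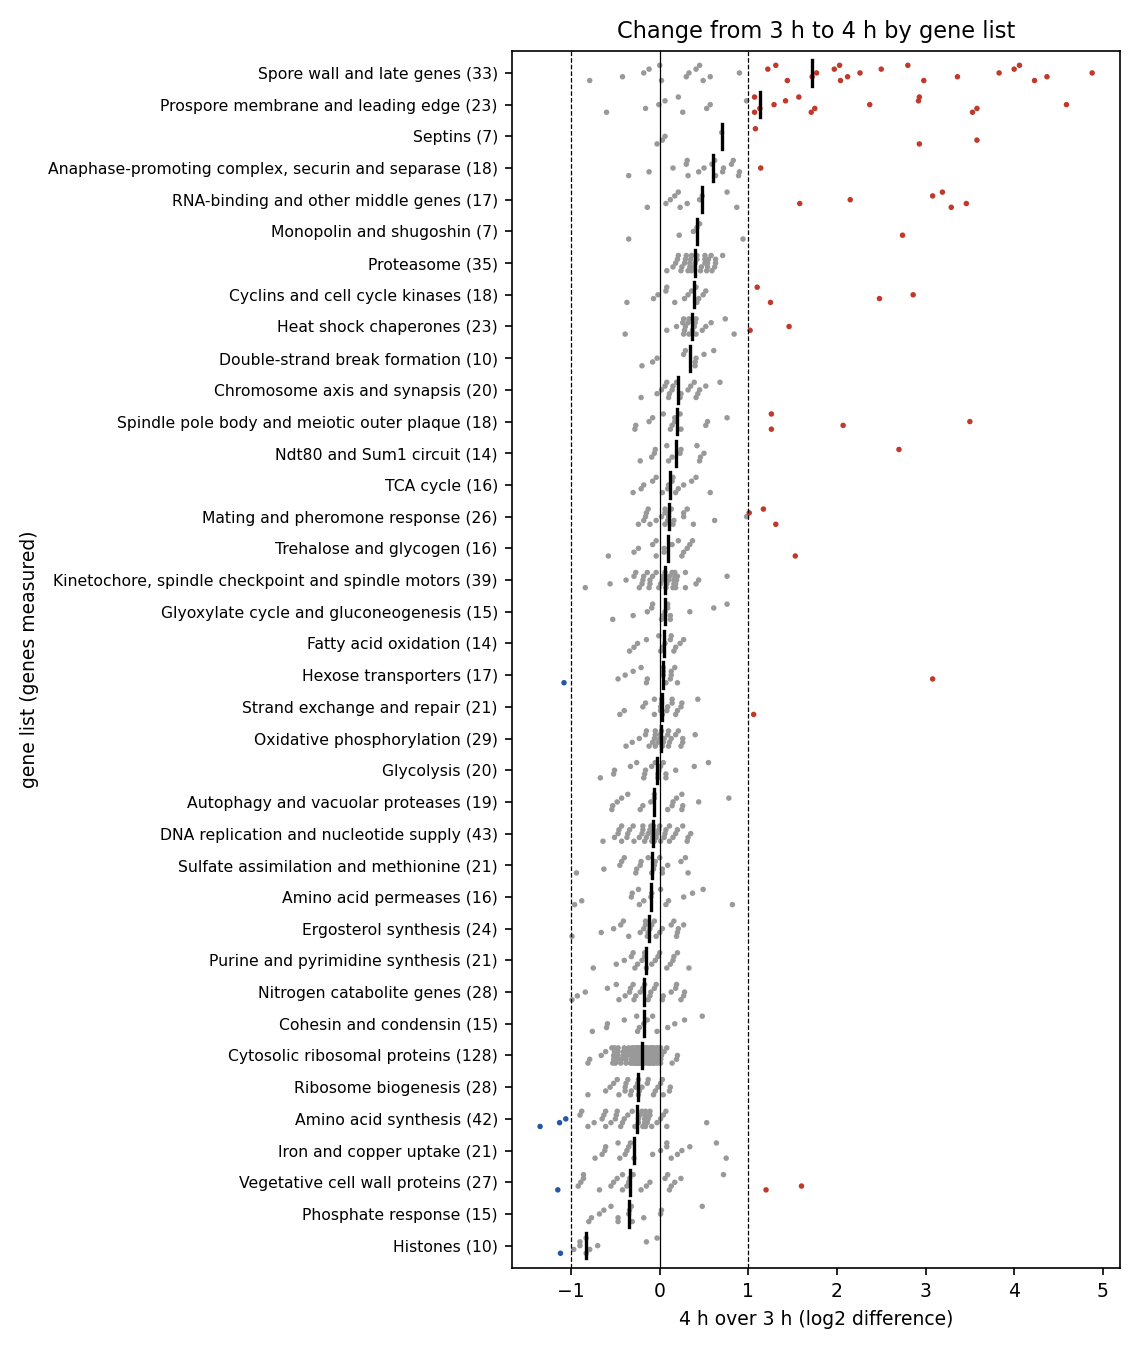
Log2 difference of 4 h over 3 h (horizontal axis) for each measured gene of 38 lists (rows, number of measured genes in brackets), sorted by median (black bar); red and blue points are past 1 and -1 (dashed lines). The spore wall and prospore membrane lists have medians past 1, the 35 proteasome genes form a tight cloud right of 0 and the 10 histone genes lie left of it. With columns scaled to one SD the prospore membrane median was 0.883.

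Lists of growth and metabolism had medians between -0.35 and 0.12 in this hour. Cytosolic ribosomal protein genes had a median of -0.205 with 115 of 128 differences below 0 (47.9% of all genes were), but the median was -0.005 against the mean of 2 h and 3 h. The ribosome biogenesis genes had a median of -0.245, with YTM1 the lowest at -0.81. DNA replication and nucleotide supply had a median of -0.08 (POL1 -0.64), and cohesin and condensin one of -0.18 (PDS5 -0.76). The phosphate list had a median of -0.35 (VTC3 -0.80) and the nitrogen catabolite list one of -0.18 (MEP2 -0.99). Differences were below 0 in 23 of 28 ribosome biogenesis genes, 29 of 43 replication genes and 11 of 15 cohesin and condensin genes. The same held for 12 of 15 phosphate and 20 of 28 nitrogen catabolite genes. Sulfate and methionine genes had a median of -0.09 (MET17 -0.94), ergosterol genes one of -0.12 (ERG3 -0.99) and purine and pyrimidine genes one of -0.15 (URA1 -0.75). Amino acid permeases had a median of -0.095 (BAP2 -0.96), autophagy and vacuolar protease genes one of -0.06 (ATG3 0.78) and iron and copper uptake one of -0.29 (FET5 0.75), or 0.026 after scaling. The glycolysis median was -0.035 (PDC1 -0.67), or 0.317 after scaling. The TCA cycle (0.12), oxidative phosphorylation (0.02) and glyoxylate and gluconeogenesis (0.06) medians were close to 0, the last at -0.315 against the mean of 2 h and 3 h. The fatty acid oxidation median was 0.045 and turned to -0.089 after scaling, and that of the kinetochore list was 0.06 and turned to -0.063. The medians of the lists with a few members past the cut were 0.385 for cyclins and kinases, 0.42 for monopolin and shugoshin, 0.185 for the Ndt80 circuit, 0.48 for other middle genes and 0.70 for septins. They were 0.095 for trehalose and glycogen, 0.04 for hexose transporters, 0.10 for mating genes, -0.34 for vegetative wall genes and 0.03 for strand exchange and repair, the last at -0.16 after scaling.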

How the data were processed

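The deposited table holds log2 values, 1 column for each of 7 time points. The authors made them, per the series design, as the log2 of the ratio of a time point to a common meiotic mix divided by that ratio at 0 h. The sources used here do not state background correction, normalization, filters, platform or how the 3 cultures were combined. Of 6141 rows, 5666 had values at every hour and the other 475 had none. No normalization was added. Python 3.11.15 with pandas 2.3.3 subtracted the 3 h from the 4 h column of each gene, and the cut was a log2 difference of 1, or 2-fold. Counting was tested on simulated data. With 1 column per hour no test was made. Signal over background is unknown, and precision is limited by how few columns there are.

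Names came from the RefSeq table of the R64 assembly, which matched 5238 of the rows with values. The members and the 38 gene lists were chosen with earlier results of these data known. Named genes are the 15 largest higher and the 10 lower differences among genes with a standard name, members in a list, genes next to the cut, the largest 1 or 2 of the other lists and regulators fixed by name; other genes were named after their values were seen. The alternatives were other cuts, centring, scaling, a mean of 2 h and 3 h as the earlier value, and annotated genes only.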

Additional observations from a re-analysis of the deposited data

How the results depend on the processing

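The count of 110 higher genes was 136 at a cut of 0.8, 109 with each column centred on its median, 96 with columns scaled to one SD, 125 against the mean of 2 h and 3 h, and 104 among annotated protein-coding genes. At a cut of 1.5 it was 72. Of the 110 genes, 91 stayed past the cut after scaling and 108 did so against the mean of 2 h and 3 h. The 10 lower genes were less settled: 0 remained at a cut of 1.5, and the counts were 41 at a cut of 0.8, 13 after centring, 24 after scaling and 43 against the mean of 2 h and 3 h. Of the 10, 8 stayed past the cut after scaling and 9 against the mean. The SD over genes was 1.05 at 4 h and 0.907 at 3 h, and scaling removes that difference. None of the 120 genes changed sign under centring, scaling or the mean of 2 h and 3 h. CDC10, ADY3, CLB6, SMA1, IRC10, SSA4, EXO1, STE4, HSP150 and UTR2 were no longer past the cut after scaling, among 21 such genes. Against the mean of 2 h and 3 h, list medians were 0.657 for break formation, 0.482 for axis and synapsis, 0.735 for other middle genes, -0.412 for nitrogen catabolite genes and -0.41 for glycolysis. After scaling they were -0.315 for sulfate and methionine genes and -0.072 for vegetative wall genes. The cause was not tested. The planned share of promoters with an Ndt80 site and its alternatives were not run. No paired analysis was possible because each time point has a single column. Leaving out a replicate was not possible either.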
